A study of Homo sapiens with 4 samples.

Results

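The genes described here are the AP-1 factors FOS, FOSB, FOSL1, FOSL2, JUN, JUNB and JUND and the EGR factors EGR1, EGR2 and EGR3, 10 genes in all, taken as every probe set whose single gene symbol is one of these names. Of the 10 genes, 9 had such probe sets, 21 in number, among 19775 genes and 54675 probe sets on the array. No probe set carried EGR2 as its single symbol in the annotation used here, so EGR2 was not analysed here. RNA came from KGN cells, a human line grown from an ovarian granulosa cell tumour, and was read on 4 Affymetrix HG-U133 Plus 2.0 arrays, which hybridise labelled RNA to sets of short probes. Control cells received a non-targeting siRNA at 10 nM (siNC) and knockdown cells received a mix of YAP and TAZ siRNAs, 5 nM of either (siYT). After 48 h the medium was changed, with 8Br-cAMP at 0.5 mM (siNC+8Br-cAMP and siYT+8Br-cAMP) or without it, and cells were collected 24 h later. Each of the 4 groups held 1 array, so no difference below has a replicate check, and sizes are given without a test unless a model is named.

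AP-1 is a family of paired leucine-zipper transcription factors. JUN proteins pair with themselves or with FOS proteins, and FOS proteins bind DNA only when paired with a JUN partner. EGR proteins are zinc-finger factors that bind GC-rich sites. Many of these genes are immediate early genes, which growth factor and MAP kinase signals switch on within minutes through serum response factor and its ternary complex partners at CArG boxes, and which cyclic AMP can switch on through CREB at cyclic AMP response elements (CRE). In granulosa cells gonadotropins raise such factors briefly, while FOSL2 and JUND are known for more lasting expression. YAP and TAZ reach DNA mainly through TEAD factors, which often share enhancers with AP-1.

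Sequence just upstream of the RefSeq start (GRCh38.p14) was found for 7 of the measured genes, namely EGR1, JUN, JUNB, JUND, FOS, FOSB and FOSL2. The 250 bases before the start are shown for EGR1, JUNB, JUN and JUND, the genes on which the results below turn and which showed different patterns. Capitals mark CArG boxes, the short CRE site TGACG, the longer CRE-like site TGACNTCA and the AP-1 site TGANTCA, on either strand. The windows are chr5:138465229-138465478 (plus strand) for EGR1, chr19:12791236-12791485 (plus strand) for JUNB, chr1:58784048-58784297 (minus strand) for JUN and chr19:18281623-18281872 (minus strand) for JUND, and each runs up to the base before the annotated start.
EGR1: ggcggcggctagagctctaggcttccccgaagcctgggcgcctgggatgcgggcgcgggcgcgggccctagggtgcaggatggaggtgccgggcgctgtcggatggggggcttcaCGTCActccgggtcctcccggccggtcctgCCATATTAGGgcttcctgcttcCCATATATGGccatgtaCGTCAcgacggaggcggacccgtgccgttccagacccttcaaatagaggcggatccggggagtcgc
JUNB: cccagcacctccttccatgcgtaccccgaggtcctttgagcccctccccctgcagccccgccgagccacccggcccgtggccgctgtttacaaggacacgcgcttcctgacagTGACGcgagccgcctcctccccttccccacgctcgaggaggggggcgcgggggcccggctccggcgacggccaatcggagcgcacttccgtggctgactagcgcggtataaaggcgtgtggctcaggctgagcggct
JUN: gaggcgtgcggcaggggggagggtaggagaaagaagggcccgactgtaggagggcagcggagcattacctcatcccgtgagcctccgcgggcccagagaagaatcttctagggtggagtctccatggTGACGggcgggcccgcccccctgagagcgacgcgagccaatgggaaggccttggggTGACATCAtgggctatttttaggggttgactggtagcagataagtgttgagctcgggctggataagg
JUND: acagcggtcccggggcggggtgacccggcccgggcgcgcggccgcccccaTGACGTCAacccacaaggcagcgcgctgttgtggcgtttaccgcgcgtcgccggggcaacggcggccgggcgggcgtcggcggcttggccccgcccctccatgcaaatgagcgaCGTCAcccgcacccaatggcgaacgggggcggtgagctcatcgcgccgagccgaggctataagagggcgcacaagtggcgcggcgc

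EGR1 was the gene among the 7 whose window held CArG boxes, the 10-base sites of serum response factor, with CCATATTAGG at -105 to -96 and CCATATATGG at -83 to -74 from the start. A CArG box was present in 1.16% of 35116 upstream windows of the same length. The short CRE site TGACG was present in all 7 windows, against 21.2% of all windows. JUND held the full palindrome TGACGTCA (1.65% of all windows) at -200 to -193, which also counts as 2 overlapping short sites. JUN held the variant TGACATCA at -67 to -60, and with JUND it made 2 of 7 windows with TGACNTCA (6.87% of all windows). The EGR site GCGNGGGCG was found in the EGR1 window alone among the 7 (8.41% of all windows). The AP-1 site TGANTCA and the TEAD site GGAATG were found in 0 of the 7 windows, against 6.57% and 11.9% of all windows. These are matches of letters within 250 bases, and binding was not measured.

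**Figure D1:**
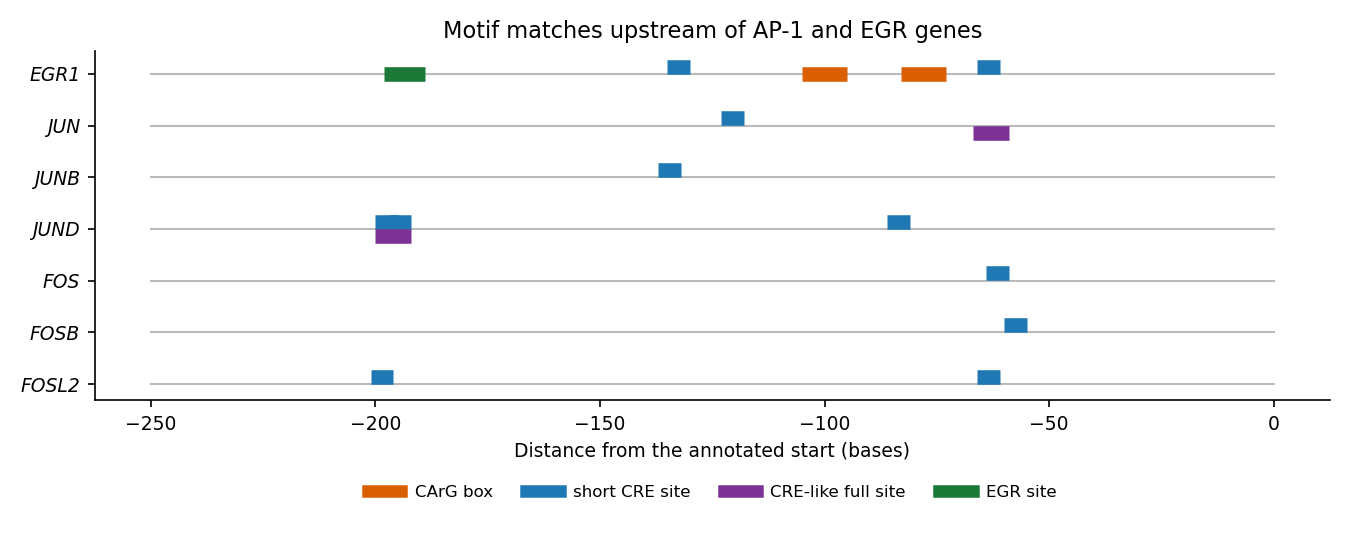
Positions of motif matches on either strand in the 250 bases upstream of the annotated start of 7 AP-1 and EGR genes (x axis, bases from the start). Each of the 7 windows holds a short CRE site (TGACG, blue), EGR1 alone holds CArG boxes (orange) and the EGR site (green), and JUN and JUND hold the CRE-like site TGACNTCA (purple).

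The arrays and their labels were checked first. Both siRNA targets were lower after knockdown, YAP1 by 3.80-fold and 3.38-fold and WWTR1, the gene for TAZ, by 5.22-fold and 6.11-fold, without and with 8Br-cAMP. As for 9 measured genes that CREB is known to drive, 8Br-cAMP gave at least 2-fold higher readings for 8 under control siRNA and for 7 after knockdown. Among all genes compared the shares were 4.34% and 5%. FOXL2 and GATA4 of the granulosa markers were read on every array, while FSHR, AMHR2 and NR5A1 were below the floor throughout. Epithelial EPCAM and CDH1, endothelial CDH5 and VWF, and theca CYP17A1 and LHCGR were below the floor on all arrays. Other genes of those lists were above it on all 4, namely KRT7 (729 to 2260) and PAX8 (545 to 750) of the epithelial, PECAM1 (144 to 233) of the endothelial and INSL3 (69.3 to 268) of the theca markers, and endothelial KDR was above it on 3 arrays. Of the leukocyte markers, PTPRC was above it in siYT+8Br-cAMP only, CD14 on both control-siRNA arrays (94.3 and 129.6), and CD3E in siYT only (63.6). The siYT+8Br-cAMP array stood apart in the ratio of 3' to 5' signal, which was 1.35 for ACTB (others 1.07 to 1.14) and 1.13 for GAPDH (others 0.89 to 0.96). As a yardstick of measurement error, which leaves out variation between cultures, the log2 SD over probe sets of the same gene was 0.39 for siYT against siNC and 0.37 for siNC+8Br-cAMP against siNC. Against the siYT+8Br-cAMP array it was 0.54 for knockdown and 0.53 for 8Br-cAMP. The yardstick came from probe sets above 4 times the floor on every array and does not cover lower readings.

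Values are intensities on a linear scale. Readings under 62.6, the median of all values, were set to that floor before log2 was taken, and the size that counts as a difference is 2-fold in either direction. A gene is given by its probe set with the highest mean log2 intensity over the 4 arrays. Levels of different genes come from different probes, so the arrays are compared within a gene. FOSB stayed below the floor on all 4 arrays (readings from 4.11 to 59.7), which leaves 8 genes to compare among 14427.

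**Figure D2:**
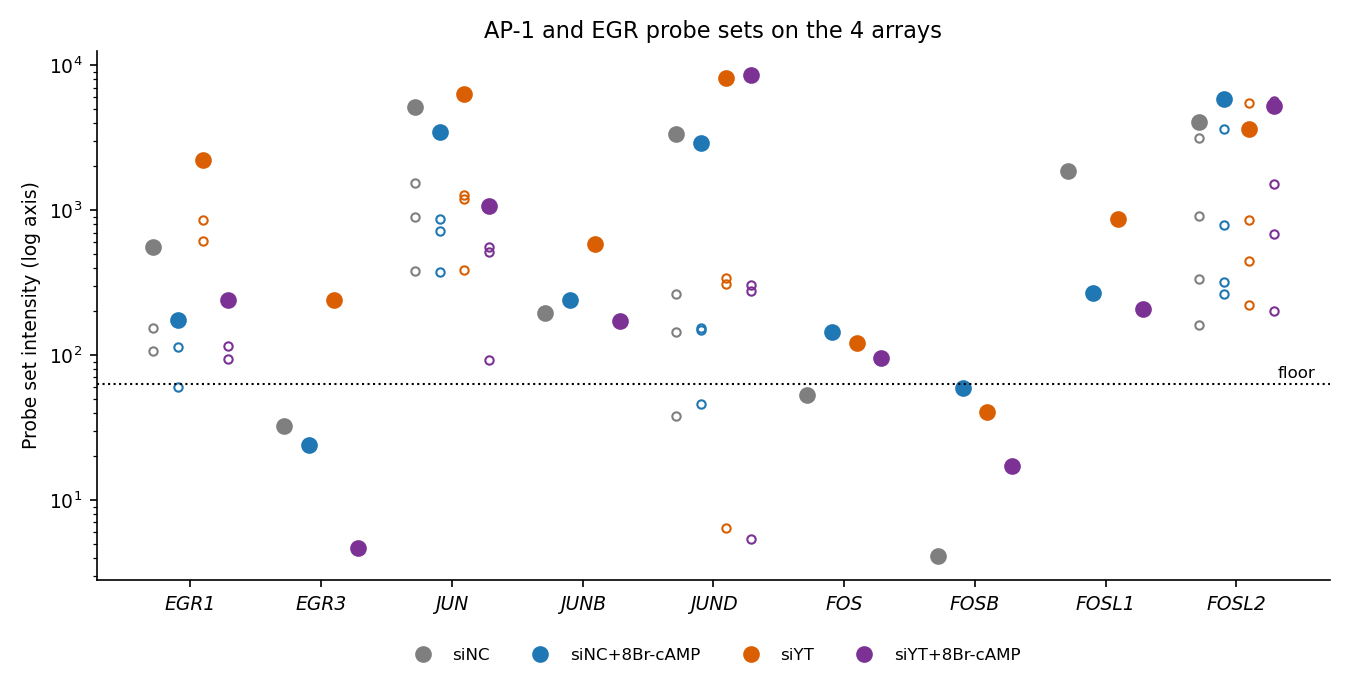
Probe set intensity (log axis) on the 4 arrays for 9 AP-1 and EGR genes, with large filled points for the probe set that represents each gene, small open points for its other probe sets and a dotted line at the floor of 62.6. EGR1 (2219) and JUNB (587) are highest in siYT, JUND is higher in both knockdown groups than in both control groups, FOSL1 is lower in both 8Br-cAMP groups, and FOSB lies below the floor.

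Without 8Br-cAMP, knockdown of YAP and TAZ went with higher EGR1, EGR3, JUNB and JUND and lower FOSL1. Of the 8 genes, 4 were at least 2-fold higher, against 7.3% of all genes compared, and 1 was at least 2-fold lower, against 6.05%. With 8Br-cAMP present, JUND was at least 2-fold higher (1 of 8, against 6.74% of all genes) and JUN at least 2-fold lower (1 of 8, against 9.48%). The median difference of the 8 genes was 1.12 on the log2 scale without and -0.27 with 8Br-cAMP, where the median over all genes was 0.00 in each.

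8Br-cAMP with control siRNA went with lower EGR1 and FOSL1 and higher FOS, that is 2 of 8 genes lower, against 5.22% of all genes, and 1 higher, against 4.34%. After knockdown 8Br-cAMP went with lower EGR1, EGR3, JUN, JUNB and FOSL1, 5 of 8 genes against 9.88% of all genes, and 0 of 8 were at least 2-fold higher, against 5%. The medians of the 8 genes were -0.09 with control siRNA and -1.86 after knockdown. EGR1, EGR3 and JUNB were both at least 2-fold higher in siYT than in siNC and at least 2-fold lower in siYT+8Br-cAMP than in siYT, a pattern seen in 228 of 14427 genes (1.58%). These 2 comparisons share the siYT array, so a high reading on it enters both.

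**Figure D3:**
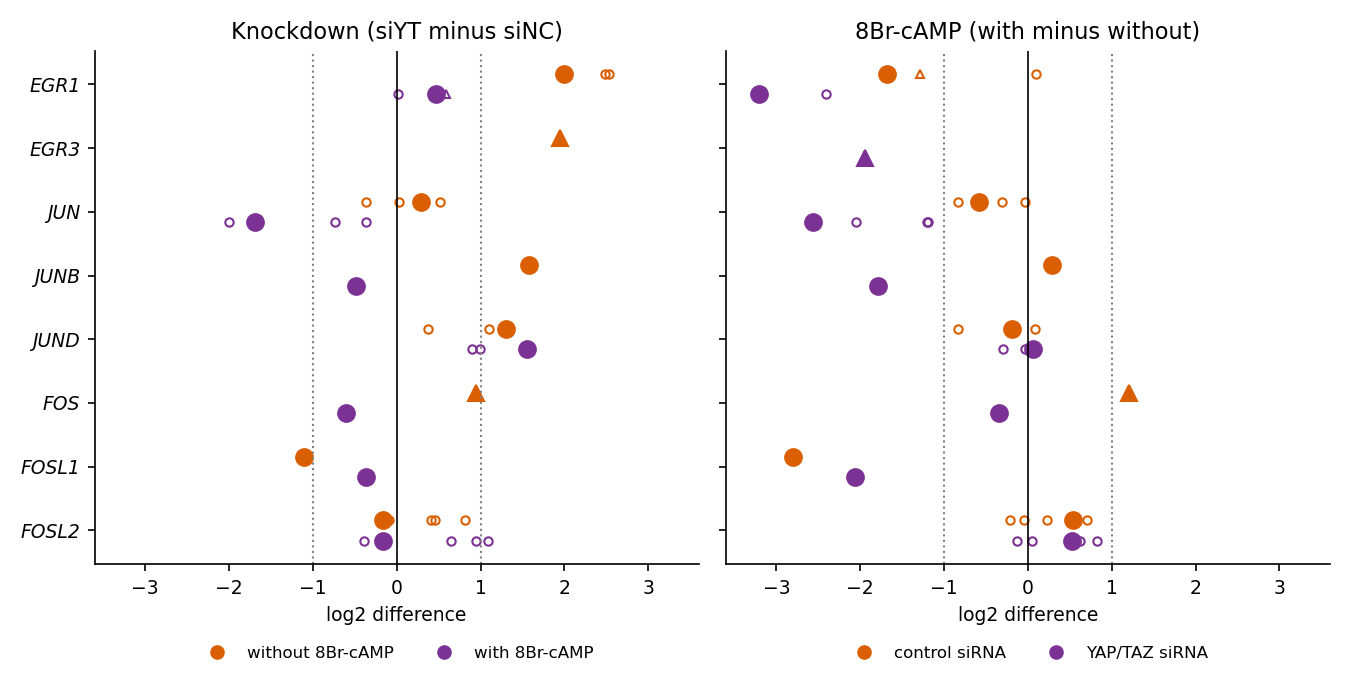
Log2 differences of the AP-1 and EGR genes for knockdown (left; orange without and purple with 8Br-cAMP) and for 8Br-cAMP (right; orange with control and purple with YAP/TAZ siRNA), with large filled points for the representative probe set, small open points for other probe sets, triangles for bounds where 1 array was at the floor, and dotted lines at 2-fold. All 3 EGR1 probe sets lie beyond 2-fold for knockdown without 8Br-cAMP (1.998 to 2.53) and none does with it, and all 4 JUN probe sets lie below -1 for 8Br-cAMP after knockdown.

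EGR1, the zinc-finger factor that links growth factor and gonadotropin signals to transcription, read 556 in siNC and 2219 in siYT, and with 8Br-cAMP 173 under control siRNA and 239 under YAP/TAZ siRNA. The siYT array was the highest and both 8Br-cAMP arrays lay below both arrays without it. Knockdown without 8Br-cAMP was 3.99-fold higher and knockdown with it 1.38-fold higher. 8Br-cAMP was 3.20-fold lower with control siRNA and 9.27-fold lower after knockdown. In the order siNC, siNC+8Br-cAMP, siYT, siYT+8Br-cAMP a second EGR1 probe set read 153, 60.5, 853 and 94.0, and the third 106, 114, 615 and 116. Both were also highest in siYT, by 5.58-fold and 5.79-fold over siNC. They differed on 8Br-cAMP with control siRNA, where one was at least 2.44-fold lower and the other 1.07-fold higher, so that the lower EGR1 reading with 8Br-cAMP under control siRNA rests on 2 of its 3 probe sets.

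EGR3, a relative of EGR1 that binds the same sites, read 241 in siYT and was below the floor on the other arrays (32.6, 24.1 and 4.70 in siNC, siNC+8Br-cAMP and siYT+8Br-cAMP). The siYT reading was thus at least 3.84-fold above siNC and at least 3.84-fold above siYT+8Br-cAMP. It rests on 1 probe set and on 1 array.

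JUNB, an AP-1 subunit that often restrains JUN, read 196 in siNC and 587 in siYT, and with 8Br-cAMP 240 under control siRNA and 171 under YAP/TAZ siRNA. The siYT array was the highest, as for EGR1, and for JUNB the other arrays lay between 171 and 240. JUNB was 2.998-fold higher after knockdown without 8Br-cAMP and 1.41-fold lower after knockdown with it. 8Br-cAMP was 1.22-fold higher with control siRNA and 3.44-fold lower after knockdown.

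JUN, the founding AP-1 subunit, read 5127 in siNC and 6292 in siYT, and with 8Br-cAMP 3436 under control siRNA and 1065 under YAP/TAZ siRNA. The siYT+8Br-cAMP array was the lowest, 3.23-fold below siNC+8Br-cAMP and 5.91-fold below siYT, while siYT was 1.23-fold above siNC. The other JUN probe sets were read as 1544, 865, 1194 and 517, as 890, 719, 1274 and 557, and as 380, 371, 386 and 93.0, in the order siNC, siNC+8Br-cAMP, siYT, siYT+8Br-cAMP. All 4 probe sets were at least 2-fold lower with 8Br-cAMP after knockdown, by log2 differences between -2.56 and -1.19. For knockdown with 8Br-cAMP all 4 were lower, 2 of them by at least 2-fold, and the differences ran from -1.997 to -0.37. The size of the JUN difference on this array thus depended on the probe set, and the array's higher 3' to 5' ratio moved with it. Its part in the result was not tested. The representative JUN probe set and 2 others carry suffixes that mark probes shared between transcripts.

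JUND, the JUN member with the steadiest expression in most cells, read 3328 in siNC and 8186 in siYT, and with 8Br-cAMP 2919 under control siRNA and 8570 under YAP/TAZ siRNA. Both knockdown arrays lay above both control arrays, by 2.46-fold without and 2.94-fold with 8Br-cAMP. In this probe set 8Br-cAMP differed by less than the yardstick SD on either background (1.14-fold lower and 1.05-fold higher). In the same order of arrays the next JUND probe sets read 263, 148, 340 and 277 and 145, 153, 311 and 305, which is 1.29-fold and 1.87-fold higher after knockdown for the first and 2.14-fold and 1.98-fold higher for the second. For 8Br-cAMP with control siRNA the first was 1.78-fold lower and the second 1.06-fold higher. The fourth JUND probe set stayed below the floor on every array (5.38 to 46.1). All JUND probe sets carry suffixes that mark shared probes.

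FOS, the partner of JUN in the classical AP-1 pair, was read near the floor. It stood at 53.1 in siNC and 121 in siYT, and with 8Br-cAMP at 144 (siNC+8Br-cAMP) and 94.8 (siYT+8Br-cAMP). It was at least 2.30-fold higher with 8Br-cAMP under control siRNA, where siNC was below the floor, and 1.27-fold lower with 8Br-cAMP after knockdown. After knockdown it was at least 1.93-fold above siNC, and with 8Br-cAMP it was 1.52-fold below siNC+8Br-cAMP.

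FOSL1 (FRA1), a FOS relative without the transactivation domain of FOS that is often high in invasive cells, read 1866 in siNC and 871 in siYT, and with 8Br-cAMP 268 under control siRNA and 208 under YAP/TAZ siRNA. Both arrays with 8Br-cAMP lay below both arrays without it, by 6.96-fold with control siRNA and 4.19-fold after knockdown. Knockdown was 2.14-fold lower without 8Br-cAMP and 1.29-fold lower with it. FOSL1 and the representative EGR1 probe set were at least 2-fold lower with 8Br-cAMP on both siRNA backgrounds. Another EGR1 probe set was not lower under control siRNA (106 in siNC and 114 in siNC+8Br-cAMP). Among all genes, 5.22% were at least 2-fold lower under control siRNA and 9.88% after knockdown, and the share lower in both was not counted.

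FOSL2 (FRA2), the FOS relative known from later stages of granulosa differentiation, read 4033 in siNC and 3616 in siYT, and with 8Br-cAMP 5862 under control siRNA and 5218 under YAP/TAZ siRNA. No difference in its representative probe set reached 2-fold, and with 8Br-cAMP it read 1.45-fold higher under control siRNA and 1.44-fold higher under YAP/TAZ siRNA. The other 4 probe sets did not all go the same way. For knockdown without 8Br-cAMP the 5 probe sets ran from -0.16 to 0.82 on the log2 scale, and with 8Br-cAMP from -0.39 to 1.09, with 1 of the 5 past 2-fold (321 in siNC+8Br-cAMP and 685 in siYT+8Br-cAMP). For 8Br-cAMP with control siRNA they ran from -0.22 to 0.71.

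Among the JUN and FOS genes, knockdown without 8Br-cAMP thus had JUNB and JUND at least 2-fold higher and FOS at least 0.95 higher on the log2 scale. FOSL1 was the one at least 2-fold lower, and JUN (0.30) and FOSL2 (-0.16) were within the yardstick SD of 0.39.

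**Figure D4:**
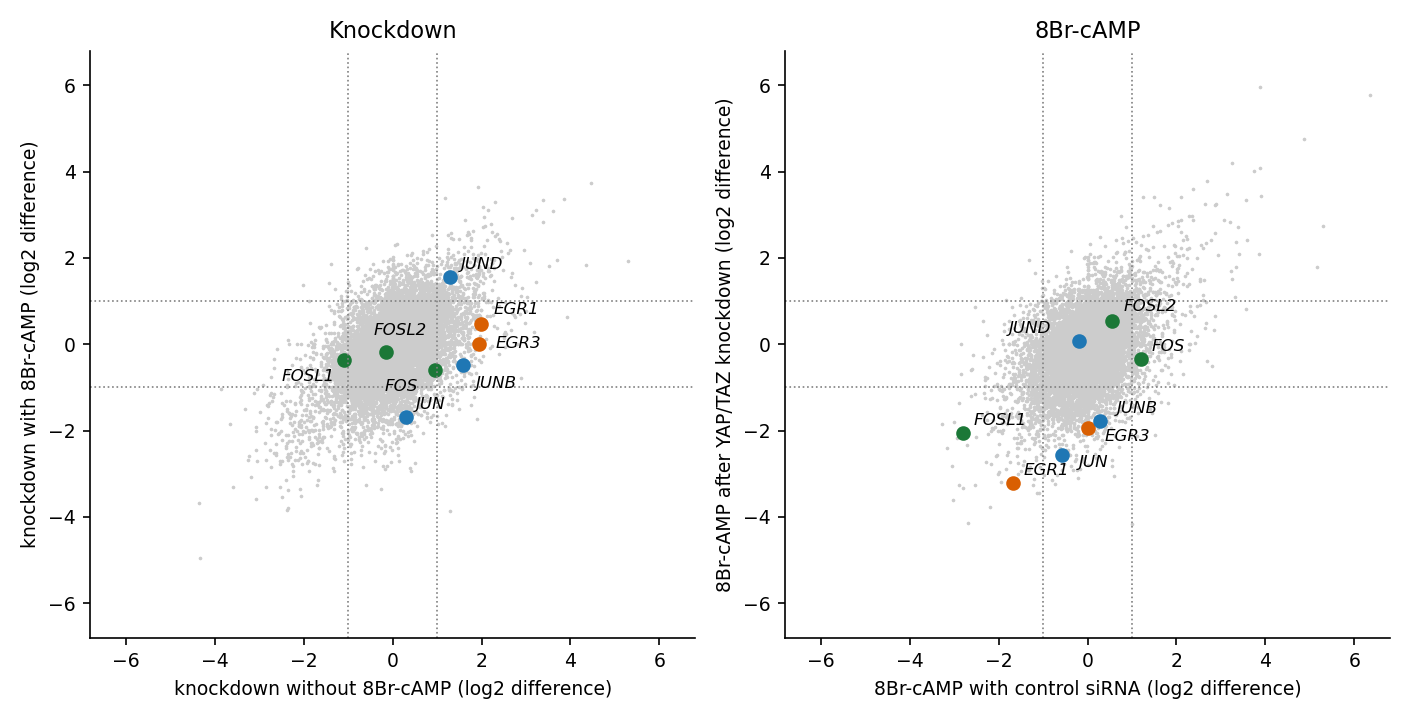
Log2 differences of 14427 genes (grey) with the 8 compared AP-1 and EGR genes marked (EGR orange, JUN blue, FOS green), for knockdown without against with 8Br-cAMP (left) and for 8Br-cAMP with control siRNA against after knockdown (right), with dotted lines at 2-fold. JUND lies beyond 2-fold in both knockdown comparisons, EGR1, EGR3 and JUNB lie beyond it without 8Br-cAMP only (EGR3 at 0 on an axis means that both arrays were at the floor), and FOSL1 and EGR1 are lower with 8Br-cAMP in both comparisons.

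The difference of differences, knockdown with 8Br-cAMP minus knockdown without it, was at least 2-fold negative for FOS, JUN, JUNB, EGR1 and EGR3, 5 of 8 genes against 9.56% of all genes. It was at least 2-fold positive for 0 of 8, against 5.39%. It was -2.07 for JUNB, -1.99 for JUN, -1.94 for EGR3, -1.55 for FOS and -1.53 for EGR1, where the EGR3 and FOS values are affected by readings at the floor. The yardstick SD for this quantity was 0.60, from probe sets above 4 times the floor on every array. Of the representative probe sets just listed that of JUN alone met that limit, so the error of the other values was not measured. The other JUN probe sets gave -2.02, -0.89 and -0.37, so JUN did not pass 2-fold in every probe set. For EGR1 the other probe sets gave -1.89 and -2.51. JUND (0.26), FOSL2 (-0.01) and FOSL1 (0.73) did not reach 2-fold. The siYT array was the highest of the 4 for JUN, JUNB, EGR1 and EGR3, 4 of 8 genes, and for 24.1% of all genes. Of the comparisons above, those with the siYT+8Br-cAMP array cannot be given without it, and those between siYT and siNC and between siNC+8Br-cAMP and siNC do not use it.

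An additive limma fit over all genes, whose 1 residual degree of freedom is the difference of differences, called 0 of the 8 genes for either factor at a Benjamini-Hochberg level of 0.05. It called 0.658% of all genes higher and 1.12% lower for knockdown, and 0.111% higher and 0.0277% lower for 8Br-cAMP. At an unadjusted p under 0.05 it called 2 of 8 genes for knockdown (JUND and EGR1) and 3 of 8 for 8Br-cAMP (FOSL1, EGR1 and JUN). The lowest limma adjusted p were 0.070 for JUND with knockdown (log2 1.43) and 0.058 for FOSL1 with 8Br-cAMP (log2 -2.43). Both genes went the same way in both comparisons of that factor.

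Of 9 compared leucine-zipper partners, 1 was at least 2-fold higher after knockdown in both conditions, MAF (171, 156, 889 and 853, in the order of arrays siNC, siNC+8Br-cAMP, siYT, siYT+8Br-cAMP that holds for each set of 4 readings below). Among all genes, 7.3% were at least 2-fold higher after knockdown without 8Br-cAMP and 6.74% with it, and the share higher in both was not counted. JDP2, a repressor that pairs with JUN, read 1470, 419, 746 and 126, and was at least 2-fold lower with 8Br-cAMP on both backgrounds and after knockdown with 8Br-cAMP. ATF3, a stress-induced partner of JUN, was 4.12-fold lower with 8Br-cAMP under control siRNA and 1.89-fold lower after knockdown. MAFF, a small MAF protein, was 1.63-fold and 3.01-fold lower in the same comparisons. The medians of the 9 were 0.00 and -0.09 for knockdown and -0.68 and -0.42 for 8Br-cAMP. Among EGR4, NAB1, NAB2 and WT1, NAB2, a co-repressor that EGR factors induce and that holds them back, read 206, 278, 352 and 119. It was 1.70-fold higher after knockdown without 8Br-cAMP and 2.34-fold lower with it, a difference of differences of -1.996. WT1 had -1.37, which made 2 of these 4 genes at least 2-fold negative, against 9.56% of all genes. Unlike the representative EGR1 probe set, NAB2 was lower after knockdown with 8Br-cAMP and 1.35-fold higher with 8Br-cAMP under control siRNA.

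Genes upstream of the immediate early factors were compared next. Of 6 serum response and ternary complex factors, 1 was at least 2-fold higher after knockdown without 8Br-cAMP (ELK1, 2.10-fold), against 7.3% of all genes. None was at least 2-fold lower, against 6.05%. With 8Br-cAMP none was at least 2-fold higher, against 6.74%, and 1 was lower (ELK3, 2.43-fold), against 9.48%. ELK3, a ternary complex factor, read 3881, 2726, 6451 and 1122, highest in siYT and lowest in siYT+8Br-cAMP like JUN. SRF, the factor that binds CArG boxes, was 2.60-fold lower with 8Br-cAMP under control siRNA and 1.76-fold lower after knockdown. Of 13 MAP kinase pathway genes, MAPK7 alone passed 2-fold after knockdown without 8Br-cAMP (147 in siNC and 313 in siYT), against 7.3% of all genes higher. With 8Br-cAMP 2 were higher (MAP2K2 and MAPK3) and 2 lower (RPS6KA3 and MAPK8), against 6.74% and 9.48% of all genes. MAPK8, the kinase JNK1 that phosphorylates JUN, read 802, 741, 691 and 199.

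Other immediate early genes did not follow a single direction. Of 26 compared, knockdown without 8Br-cAMP had 8 past 2-fold upward and 3 downward, against 7.3% and 6.05% of all genes. Knockdown with it had 5 and 3, against 6.74% and 9.48%. The medians of the 26 were 0.06 and 0.22. PLK2, a kinase of the p53 response, read 18397, 10709, 1972 and 1789, and CCN1, a known YAP target, read 25904, 20358, 3087 and 1696. MYC read 8149, 7167, 2738 and 2508. DUSP6, a phosphatase that ERK signalling induces, was highest in siYT like EGR1 (421, 195, 1703 and 406), and was 4.04-fold and 2.09-fold higher after knockdown. With 8Br-cAMP 6 of 26 were higher and 5 lower under control siRNA, against 4.34% and 5.22% of all genes. After knockdown 6 were higher and 6 lower, against 5% and 9.88%. The higher genes included SGK1 (10724, 29979, 5421 and 35990.0), RHOB (2829, 19469, 4308 and 22983) and the nuclear receptor NR4A2, and the lower ones KLF2 and KLF6.

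**Figure D5:**
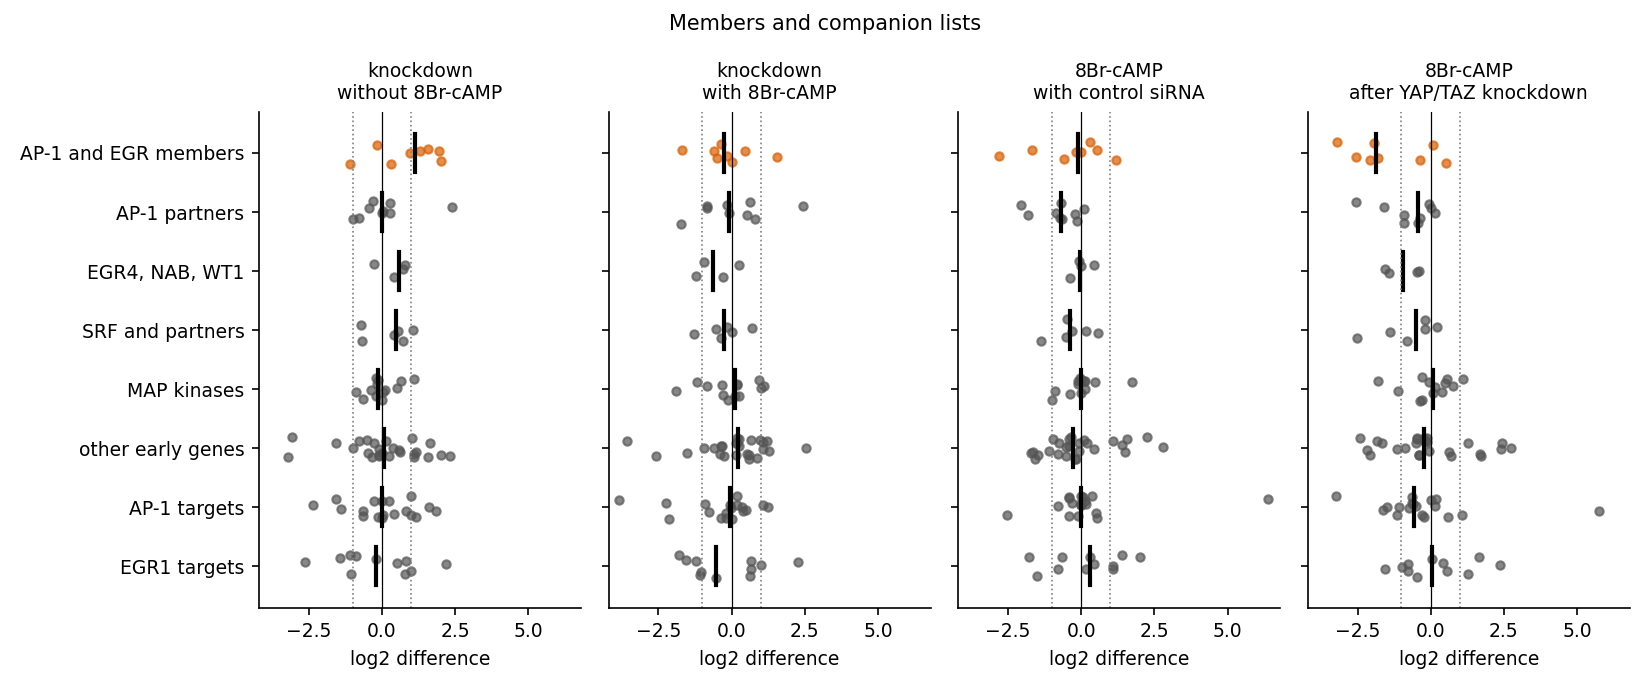
Log2 differences in the 4 comparisons for the 8 compared AP-1 and EGR genes (orange) and for the genes of 7 companion lists (grey), with black bars at the medians and dotted lines at 2-fold; the vertical scatter within a row has no meaning. The AP-1 and EGR genes have a median of 1.12 for knockdown without 8Br-cAMP and of -1.86 for 8Br-cAMP after knockdown, while the medians of the other early genes lie between -0.28 and 0.22.

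Textbook targets of the factors were read on the same arrays. Of 18 AP-1 target genes, 3 were at least 2-fold higher after knockdown without 8Br-cAMP (PLAUR, CCND1 and IL11), against 7.3% of all genes. Another 3 were lower (PLAU, IL6 and CXCL8), against 6.05%. With 8Br-cAMP 2 were higher (PLAUR and IL11) and 3 lower (PLAU, IL6 and CXCL8), against 6.74% and 9.48%. PLAU, the urokinase protease, was highest in siNC and lowest in siYT+8Br-cAMP like FOSL1, at 2451, 1403, 820 and 294. Unlike FOSL1, it read higher in siNC+8Br-cAMP than in siYT. Its receptor PLAUR went the other way after knockdown (1564, 1467, 4724 and 3105). CCND1, cyclin D1, was highest in siYT (1047, 846, 2322 and 743). The medians of the 18 were 0.01 and -0.04 for knockdown and 0.01 and -0.56 for 8Br-cAMP.

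Of 11 EGR1 target genes, 1 was at least 2-fold higher after knockdown without 8Br-cAMP, against 7.3% of all genes. It was SPRY1, an inhibitor of ERK signalling (326, 686, 1488 and 1083). The 4 lower ones, against 6.05% of all genes, were PDGFB, F3, THBS1 and FGF2. After knockdown with 8Br-cAMP 5 of 11 were at least 2-fold lower (NAB2, PDGFA, F3, THBS1 and FGF2), against 9.48% of all genes. The 2 higher ones, against 6.74%, were PDGFB (2.02-fold) and GDF15 (4.81-fold). PDGFB thus changed direction, and it read near the floor in siNC+8Br-cAMP (63.7). F3 is tissue factor, and with THBS1, a matrix glycoprotein, it is also known as a YAP target. The 11 genes had medians of -0.20 and -0.55 for knockdown and 0.29 and 0.05 for 8Br-cAMP. A link between these genes and the EGR1 readings was not tested.

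The patterns most like those of single members were found among genes above the floor on all arrays, by the root mean square difference of log2 values centred on each gene's mean over the 4 arrays. For EGR1 they were BACH1 (0.22), PLA2G4C (0.30) and HMGA2 (0.38). BACH1 read 598, 271, 3489 and 320. For JUN they were TAF4 (0.064), CREB1 (0.082) and RASSF3 (0.085), and CREB1, which encodes the factor that binds CRE sites, read 1714, 1229, 2298 and 418. For FOS they were USP20 (0.058), SLC22A14 (0.079) and IRF2BP1 (0.081), all at low intensity. For FOSL1 they were IFIT2 (0.20), MREG (0.24) and TRIB3 (0.26). With 4 arrays such likeness is a description of these readings.

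Some fibroblast markers differed in the same comparisons as EGR1 and JUNB. Of 4 fibroblast markers, COL1A2, PDGFRA and DCN were at least 2-fold higher in siYT than in siNC, and COL1A1 and PDGFRA were at least 2-fold lower in siYT+8Br-cAMP than in siYT, so that PDGFRA alone passed 2-fold in both. Among all genes, 7.3% were at least 2-fold higher in the first comparison and 9.88% at least 2-fold lower in the second. None of the 4 markers reached 2-fold with 8Br-cAMP under control siRNA. Their summed intensity was 48968, 44955, 66272 and 33810 in the same order of arrays, and all 4 were above the floor on every array. PDGFRA, a growth factor receptor that also signals to immediate early genes, read 553, 548, 3493 and 687. The part of these markers in the AP-1 and EGR results was not tested.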

How the data were processed

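The authors deposited 1 linear intensity per probe set and array. Per the submitters' processing notes the tools were RMA and Affymetrix Expression Console (no version is given). RMA gives log values with 1 distribution for all arrays, whereas these values ran from 0.081 to 147293 with a 2% trimmed mean of 500.1 on each array, so the summary method behind them stays unknown. Symbols came from the platform annotation, matched through gene identifiers for 41043 of 41097 probe sets with 1 symbol. Left out were probe sets with several symbols (1801) or none (11777). Values under 62.6 were set to it and log2 was taken (Python 3.11.15), with no further normalization. Of 19775 genes, 14427 were above the floor on at least 1 array, and 10795 on all 4. Where 1 array is at the floor, the fold is a lower bound.

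The yardstick SD came from 7501 probe sets of 3019 genes above 4 times the floor. The additive fit used limma 3.58.1 in R 4.3.3. Simulated data were used to check the limma fit and a rule of 2-fold in both knockdown comparisons, with changed genes set well above the floor. They do not cover counts from a single comparison, the difference of differences or readings near the floor. The number of arrays limits the precision, and total counts do not apply to arrays.

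The members and lists were chosen with earlier results of these data known. Named were all members, the siRNA targets, from each list up to 5 genes with the largest mean knockdown or 8Br-cAMP difference, and the 3 genes most like EGR1, FOS, JUN and FOSL1. Other genes named beside counts of 5 or fewer were named with their values seen. Alternatives were other floors, other ways to represent a gene, cyclic loess, quantile normalization, a 1.5-fold threshold and the limma fit.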

Additional observations from a re-analysis of the deposited data

Results flagged for a closer look

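The representative probe sets of JUN, JUNB and FOS differed from their control array in opposite directions after knockdown without and with 8Br-cAMP. Each side held 1 array, and the difference between the comparisons was not tested. For JUNB the knockdown difference was 1.58 without and -0.49 with 8Br-cAMP on the log2 scale, a difference of differences of -2.07. The -0.49 was smaller than the yardstick SD of 0.54 for that comparison, which does not cover JUNB readings this low. For JUN it was 0.30 and -1.69, a difference of differences of -1.99, and the positive value lay within the yardstick SD of 0.39. The opposite directions did not hold in every JUN probe set. One was lower in both comparisons (-0.37 and -0.74), and another stood at 0.02 without 8Br-cAMP. For FOS it was at least 0.95 and -0.60, a difference of differences of -1.55 from readings near the floor.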

How the results depend on the processing

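No member difference of at least 2-fold changed sign under another floor, another way to represent a gene, cyclic loess or quantile normalization. Of 109 such values, 102 kept 2-fold, but many of the 109 could not change. FOS, FOSL1, JUNB and EGR3 have 1 probe set each, so another way to represent them gave the same value. Removing the floor left readings above it as they were. Genes that dropped out of a setting were not counted there. Cyclic loess and quantile normalization left every count of genes within 1.5 times. With the floor at the 75th percentile (388.7), 6 genes remained, of which 2 were higher after knockdown without 8Br-cAMP, 0 higher and 1 lower with 8Br-cAMP under control siRNA, 3 lower with 8Br-cAMP after knockdown, and 3 had a difference of differences of 2-fold. Without a floor, 2 genes were lower after knockdown with 8Br-cAMP, JUN and EGR3 (-2.36), and both EGR3 readings were under the floor. At a 1.5-fold threshold the 2 lower genes in that comparison were JUN and FOS (-0.60). With the mean of all probe sets, JUND fell below 2-fold in both knockdown comparisons (0.69 without and 0.86 with 8Br-cAMP). In that setting 3 genes were higher after knockdown without 8Br-cAMP and 0 with it. There 1 gene was lower with 8Br-cAMP under control siRNA, and EGR1 (-0.96) was no longer past 2-fold. Without shared probe sets EGR1 and JUND had no value, and the counts were 2 higher after knockdown without 8Br-cAMP, 0 higher with it and 1 lower with 8Br-cAMP under control siRNA. The additive limma fit gave 0 in each direction for both factors. Signal over background limits FOS, FOSB and EGR3. No paired analysis was possible because each group held 1 array.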
